A study of Mus musculus with 8 samples.

Results

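The Fc receptor and complement C1q genes described here are 8 genes, Fcgr1, Fcgr2b, Fcgr3, Fcgr4, Fcer1g, C1qa, C1qb and C1qc, taken by gene symbol from a table of 11756 genes. All 8 were in the table, and all 8 were among the 10091 genes tested. The rule that picks them uses no measured value. The activating Fc receptor genes Fcgr3 and Fcer1g and the C1q genes C1qa, C1qb and C1qc were far lower in acLDL libraries 2, 3 and 4 than in most control libraries, and Fcgr1 was higher there, while acLDL library 1 did not share these shifts.

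Bone marrow from the femurs and tibias of C57BL/6 mice was the source of all 8 libraries, and the cells had been sorted for CD11c, an integrin of dendritic cells and some macrophages. In 4 libraries the cells received acetylated low density lipoprotein (acLDL) on culture day 6 for 24 h, and the 4 control libraries did not. The labels give no age, no number of animals and no genetic alteration in either group, and nothing in them ties a library to an animal or a culture of its own. The p-values therefore weigh differences against a spread among libraries that may be technical only. Values are the authors' normalized values per gene. Fold changes are log2 fold changes of limma on log2(value + 5), as acLDL minus control, with p-values adjusted by Benjamini and Hochberg over all genes tested.

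Fc gamma receptors bind the constant part of IgG and so tie antibody-coated particles to phagocytes. Fcgr1, Fcgr3 and Fcgr4 encode activating receptors, whose signal runs through the common gamma chain encoded by Fcer1g, and Fcgr2b encodes the inhibitory receptor. C1q is built of chains encoded by C1qa, C1qb and C1qc, starts the classical complement pathway when it meets bound antibody, and also tags dying cells for uptake. Macrophages and immature dendritic cells are known sources of C1q.

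The activating and inhibitory arms differ in short tyrosine motifs of their cytoplasmic tails, an ITAM (tyrosine-based activation motif) or an ITIM (tyrosine-based inhibition motif), and the codons of an example of each are shown. Both runs are from the coding strand of GENCODE transcripts, 5′ to 3′, at bases 193 to 237 of the 258 coding bases of Fcer1g and bases 949 to 966 of the 1020 coding bases of Fcgr2b. Capitals mark the codons for tyrosine and for the leucine, isoleucine or valine that the motif requires.
Fcer1g ITAM: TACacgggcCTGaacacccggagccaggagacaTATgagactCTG
Fcgr2b ITIM: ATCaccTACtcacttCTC
A search for in-frame ITAM codons, with 6 to 8 codons between the motif's arms, found a match in Fcer1g and in none of the other 7 genes. The match was in 1 of the 2 coding transcripts of Fcer1g. The shorter ITIM pattern was less selective, with 3 matches in Fcgr1 and 1 each in Fcgr2b, Fcgr4 and Fcer1g, and such a match does not show a working motif.

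Fcgr2b and Fcgr3 resemble each other closely in the part that encodes the extracellular domains, so short reads from there may not be assigned to either gene with certainty. Over 784 aligned coding bases they were 83.9% identical, against 58.6% to 63.5% for the other pairs of Fcgr genes. The most alike window of 150 bases held 1 mismatch and is shown with that base in capitals, from coding bases 256 to 405 of Fcgr2b and 241 to 390 of Fcgr3.
Fcgr2b: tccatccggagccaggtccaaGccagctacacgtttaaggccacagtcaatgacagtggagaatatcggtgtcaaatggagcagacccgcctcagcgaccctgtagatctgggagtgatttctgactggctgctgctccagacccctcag
Fcgr3: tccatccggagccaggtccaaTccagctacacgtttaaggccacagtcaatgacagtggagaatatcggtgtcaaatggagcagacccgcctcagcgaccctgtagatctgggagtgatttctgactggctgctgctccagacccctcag
Of all stretches of 31 bases in the longest coding transcript, 15.1% in Fcgr2b and 17.7% in Fcgr3 also occurred in another gene's transcripts, and for Fcgr3 that gene was always Fcgr2b. Within the last 300 bases of the transcript, which the 3′ library kit is designed to read, the share was 0% for all 8 genes. Fcgr1, Fcer1g and the C1q genes had no such stretch anywhere in their longest transcript.

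The genes lie at 3 loci (GENCODE release 21, GRCm38). Fcgr2b (170958617 to 170976547), Fcgr4 (171018920 to 171029761), Fcgr3 (171051174 to 171064935) and Fcer1g (171229572 to 171234365) share 275.7 kb of chromosome 1, with Fcgr4 on the plus strand and the others on the minus strand. Fcgr1 lies on chromosome 3 (96282909 to 96293969, minus strand). C1qb (136880129 to 136886187), C1qc (136889804 to 136893065) and C1qa (136895917 to 136898803) follow each other within 18.68 kb on the minus strand of chromosome 4. Fcgr2b is overlapped by an antisense gene, Gm38204, and no source used here says whether strand was used in counting.

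The libraries differed in their level of short transcripts, and this touches most of the 8 genes. A short-transcript index, the mean log2 deviation in a library of tested genes with a longest coding transcript below 1000 nt (the 8 genes left out), was 1.11, -1.36, -2.25 and -0.30 in acLDL libraries 1 to 4, and 0.06, 0.94, 1.08 and 0.72 in control libraries 1 to 4. Library totals ran from 3917430 to 4385050. Of the 11756 genes, 820, 2178, 2574 and 1310 were listed at 0 in acLDL libraries 1 to 4. In control libraries 1 to 4 it was 1406, 1340, 662 and 1065, so a listed 0 was more common in acLDL libraries 2 and 3 over the whole table. The ribosomal RNA row Rn18s-rs5 was at 19306 to 34320 in the acLDL libraries, library 1 included, and at 60775 to 203753 in controls, without overlap, and its part in the differences was not tested. Itgax, which encodes CD11c, was at 189, 10, 0 and 42.7 in acLDL libraries 1 to 4 and between 81.5 and 195 in controls, so the sorting marker was listed at 0 in 1 library. Zbtb46, a transcription factor gene of conventional dendritic cells, was listed between 0 and 24.6 and was too low to test. All 12 listed markers of these cells were in the table, and 10 were tested, 3 higher and 7 lower with acLDL. The 12 markers summed to 556 to 2164 in acLDL libraries and 753 to 2032 in controls. The macrophage gene Csf1r was between 3838 and 9634, while the macrophage genes Adgre1 and Cd14 are listed at 0 in acLDL libraries 2 and 3. No gene of the 10091 passed the adjusted threshold of 0.05, and the smallest adjusted p was 0.298.

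The comparison asks what acLDL, a modified lipoprotein taken up by scavenger receptors, changes in CD11c sorted cells. None of the 8 genes passed limma's adjusted threshold, against 0% of all genes tested. At an unadjusted p under 0.05 there were 3 of 8, with Fcgr1 higher and Fcer1g and C1qa lower, against 7.42% of all genes higher and 8.93% lower. For none of the 8 did the groups stay apart without overlap, against 5.64% of all genes tested, 3.44% higher and 2.2% lower. Means on the log2 scale were lower with acLDL for 6 genes and higher for 2, with a median log2 fold change of -1.995, beside 55.7% lower and a median of -0.13 over all genes. The median moved with scaling, to 0.13 for all genes after quantile normalization, and none of the 8 genes changed sign under quantile normalization or median-of-ratios size factors.

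**Figure D1:**
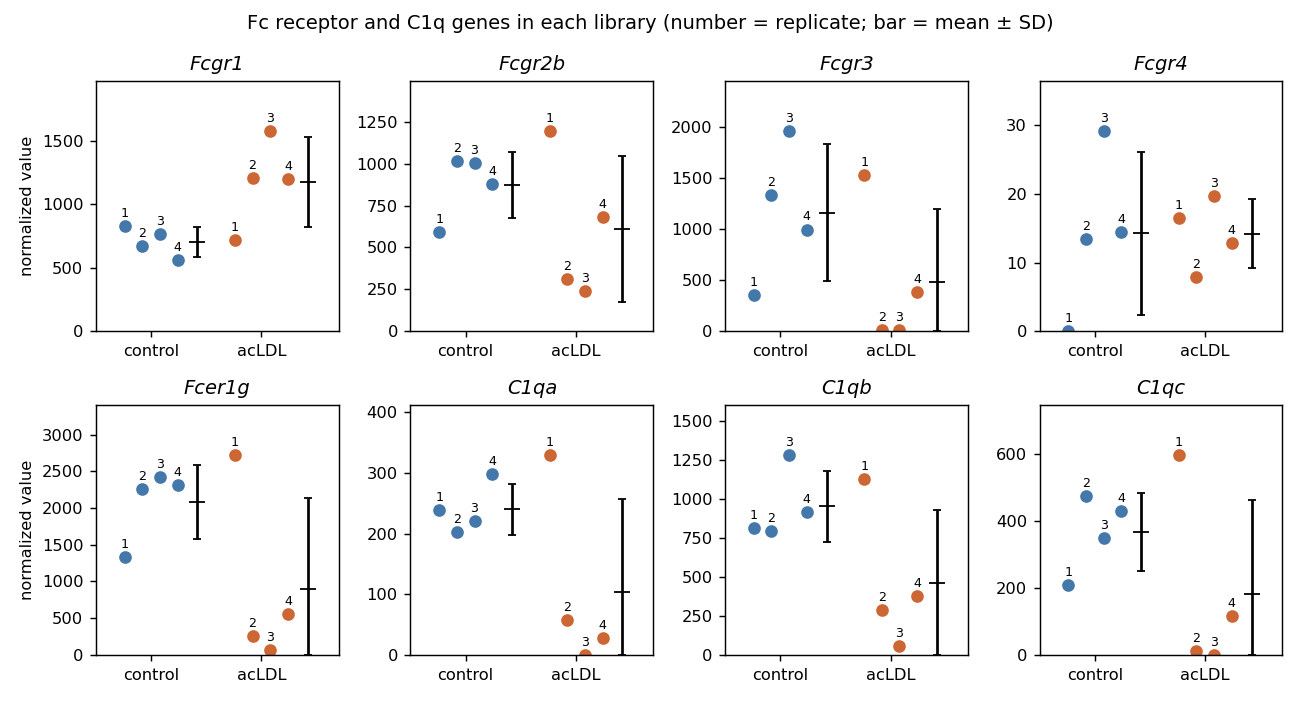
Normalized value of each gene (vertical axis, linear, from 0) in the 4 control and 4 acLDL libraries, numbered by replicate, with the mean ± SD (lower arm stopped at 0) beside each group. In acLDL libraries 2 and 3, Fcgr3 was at 7.96 and 10.3 and Fcgr1 at 1209 and 1578, whereas acLDL library 1 lay within or above the range of the controls for every gene.

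Fcgr1, which encodes the high-affinity IgG receptor CD64, was at 718, 1209, 1578 and 1204 in acLDL libraries 1 to 4 and at 829.6, 670.2, 765 and 559.9 in control libraries 1 to 4. Libraries 2, 3 and 4 with acLDL were above every control, and acLDL library 1 lay within the control range. The mean of the acLDL libraries was 1177 ± 353 (SD, n = 4) and that of the controls 706 ± 117. Limma gave a log2 fold change of 0.69 (SE 0.26, 95% interval 0.10 to 1.28), unadjusted p = 0.026 and adjusted p = 0.298. Fcgr1 was the only member with a positive log2 fold change under each of the 19 alternatives run, from 0.27 to 0.91.

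Fcgr3, which encodes the low-affinity activating receptor CD16, was at 1525, 7.96, 10.3 and 385 in acLDL libraries 1 to 4 and at 355, 1337, 1959.5 and 996 in control libraries 1 to 4. The values of acLDL libraries 2 and 3 were close to the lowest value the table holds above 0, which is 5.0006, while acLDL library 1 exceeded 3 of the 4 controls. In acLDL library 4 the value lay within the control range, because control library 1 was as low. Fcgr3 had the lowest log2 fold change of the 8 genes, -3.24 (SE 1.49, 95% interval -6.61 to 0.13), with limma's unadjusted p = 0.057 and adjusted p = 0.298. The mean of the acLDL libraries was 482 ± 717 (SD, n = 4) and that of the controls 1162 ± 669.7, a difference within the spread of the libraries.

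Fcer1g, the signalling chain on which the activating receptors rely, was at 2726, 251, 65.1 and 551 in acLDL libraries 1 to 4 and at 1329, 2263, 2418 and 2317 in control libraries 1 to 4. Libraries 2, 3 and 4 with acLDL were below every control, and acLDL library 1 was above every control. Control library 1 stood apart from the other controls at the low end. The log2 fold change was -2.32 (SE 0.93, 95% interval -4.44 to -0.20), with limma's unadjusted p = 0.035 and adjusted p = 0.298. Fcgr1 and its signalling chain thus went opposite ways in acLDL libraries 2, 3 and 4. The log2 ratio of Fcgr1 to Fcer1g was -1.92, 2.25, 4.50 and 1.12 in acLDL libraries 1 to 4 and between -2.04 and -0.68 in controls.

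Fcgr2b, the inhibitory receptor gene, was at 1195, 315, 242 and 681 in acLDL libraries 1 to 4 and at 592, 1017, 1006 and 878 in control libraries 1 to 4. Libraries 2 and 3 with acLDL were below every control, library 4 lay within the control range and library 1 was above it. Its log2 fold change was -0.77 (SE 0.47, 95% interval -1.84 to 0.31, limma's adjusted p = 0.356). The sign was not stable, at 0.24 with the short-transcript index as a covariate and 0.08 without acLDL libraries 2 and 3.

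Because Fcgr3 was further below its controls than Fcgr2b in acLDL libraries 2 and 3, the balance of the inhibitory to the activating low-affinity receptor gene differed between libraries. The log2 ratio of Fcgr2b to Fcgr3 was -0.35, 4.62, 4.02 and 0.81 in acLDL libraries 1 to 4 and 0.73, -0.39, -0.96 and -0.18 in control libraries 1 to 4. Libraries 2 and 3 with acLDL stood far above the rest, and acLDL library 4 was near control library 1. Because Fcgr3 was at 7.96 and 10.3 in acLDL libraries 2 and 3, the size of the ratio there depends on the pseudocount of 5. The ratio of a pair of members was not tested.

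Fcgr4, which encodes a further activating receptor of monocytes and neutrophils, was barely detected, at 16.4, 7.86, 19.7 and 12.9 in acLDL libraries 1 to 4 and at 0, 13.4, 29.2 and 14.5 in control libraries 1 to 4. All acLDL values lay within the control range. The log2 fold change of 0.25 (SE 0.62, 95% interval -1.16 to 1.66, limma's adjusted p = 0.820) turned to -0.32 with array weights and to -0.30 without control library 1, where the gene is listed at 0. At this level a difference was not detectable.

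C1qa was at 329.9, 57.6, 0 and 28.0 in acLDL libraries 1 to 4 and at 239, 202, 219.9 and 298 in control libraries 1 to 4. Its controls kept within a narrow range, acLDL libraries 2, 3 and 4 were all below it, and acLDL library 1 was above it. The log2 fold change was -2.49 (SE 1.05, 95% interval -4.88 to -0.10), with limma's unadjusted p = 0.043 and adjusted p = 0.298.

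C1qb, the C1q gene with the highest values in every library, was at 1129, 287, 55.7 and 375 in acLDL libraries 1 to 4 and at 816, 795, 1282 and 917 in control libraries 1 to 4. Libraries 2, 3 and 4 with acLDL were below every control, and acLDL library 1 lay within the control range. The log2 fold change was -1.67 (SE 0.74, 95% interval -3.35 to 0.02), with limma's unadjusted p = 0.052 and adjusted p = 0.298.

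C1qc was at 598, 12.5, 0 and 116 in acLDL libraries 1 to 4 and at 209, 476, 350.0 and 431 in control libraries 1 to 4. The pattern was that of C1qa, with libraries 2, 3 and 4 below every control and library 1 above. Its log2 fold change was -2.82 (SE 1.29, 95% interval -5.74 to 0.09), with limma's unadjusted p = 0.056 and adjusted p = 0.298. In bulk RNA, fewer cells that make C1q and less C1q RNA per cell cannot be told apart.

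The chains of C1q did not keep a fixed ratio across libraries. The log2 ratio of C1qb to C1qc was 0.91, 4.06, 3.60 and 1.66 in acLDL libraries 1 to 4 and between 0.73 and 1.94 in controls. For C1qb to C1qa it was 1.76, 2.22, 3.60 and 3.52 in acLDL libraries 1 to 4 against 1.60 to 2.52 in controls. Where C1qa and C1qc are listed at 0, in acLDL library 3, the ratio reflects the pseudocount of 5.

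**Figure D2:**
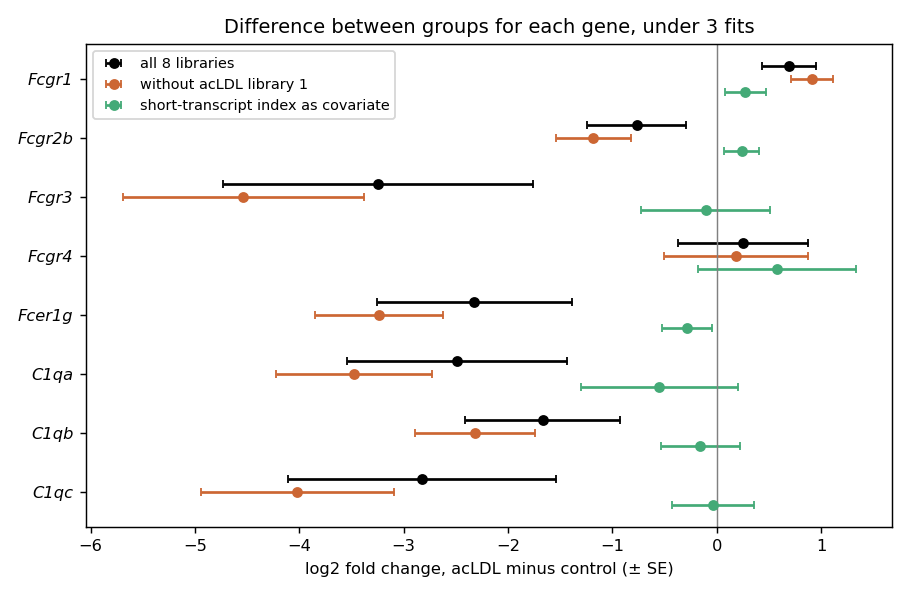
Log2 fold change of each gene, acLDL minus control (horizontal axis, points with ± SE), fitted on all 8 libraries, without acLDL library 1, and with the short-transcript index as a covariate. Without acLDL library 1 the values of Fcgr3 and C1qc lay at -4.54 and -4.02, and with the covariate at -0.11 and -0.04.

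Leaving out a single acLDL library moved the calls or the size of the differences. Without acLDL library 1, 7 of the 8 genes passed limma's adjusted threshold, against 21.7% of all genes tested, and Fcgr4 did not. Fcgr1 rose (0.91, SE 0.20, adjusted p = 0.026) and 6 genes fell, against 7.28% of all genes higher and 14.4% lower. Among those that fell, the log2 fold change was -4.54 for Fcgr3 (adjusted p = 0.034), -4.02 for C1qc (adjusted p = 0.028), -3.48 for C1qa (adjusted p = 0.026), -3.24 for Fcer1g (adjusted p = 0.024), -2.32 for C1qb (adjusted p = 0.032) and -1.18 for Fcgr2b (adjusted p = 0.049). With array weights, which let limma weigh libraries by how well they follow the model, 4 of 8 passed, namely Fcgr1, Fcer1g, C1qa and C1qb, beside 1957 genes in all. Without acLDL library 3 none of the 8 passed, as with all libraries. The log2 fold change was then -0.91 for C1qb, -1.71 for C1qc, -1.45 for C1qa, -1.48 for Fcer1g and -0.42 for Fcgr2b. Each of these was nearer to 0 by over 1.5 times than with all libraries. For Fcgr3 it was -2.32 without acLDL library 3 and -2.24 without acLDL library 2, against -3.24 with all libraries.

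The short-transcript index moved with these genes. In acLDL libraries 2, 3 and 4, its part in the differences cannot be told apart from that of acLDL. Every control had a higher index than those libraries, while the highest index, 1.11, was that of acLDL library 1. Over the 8 libraries, Pearson's r with the index was 0.99 for Fcer1g, 0.99 for C1qc, 0.98 for Fcgr2b, 0.97 for Fcgr3, 0.95 for C1qb and 0.90 for C1qa. It was -0.91 for Fcgr1 and 0.13 for Fcgr4. These are descriptions over libraries that share the same group split and the same scaling. With the index as a covariate, the log2 fold change was -0.29 for Fcer1g, -0.55 for C1qa, -0.16 for C1qb, -0.04 for C1qc, -0.11 for Fcgr3 and 0.27 for Fcgr1. None of the 8 then had an unadjusted p under 0.05, against 5% of all genes tested.

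**Figure D3:**
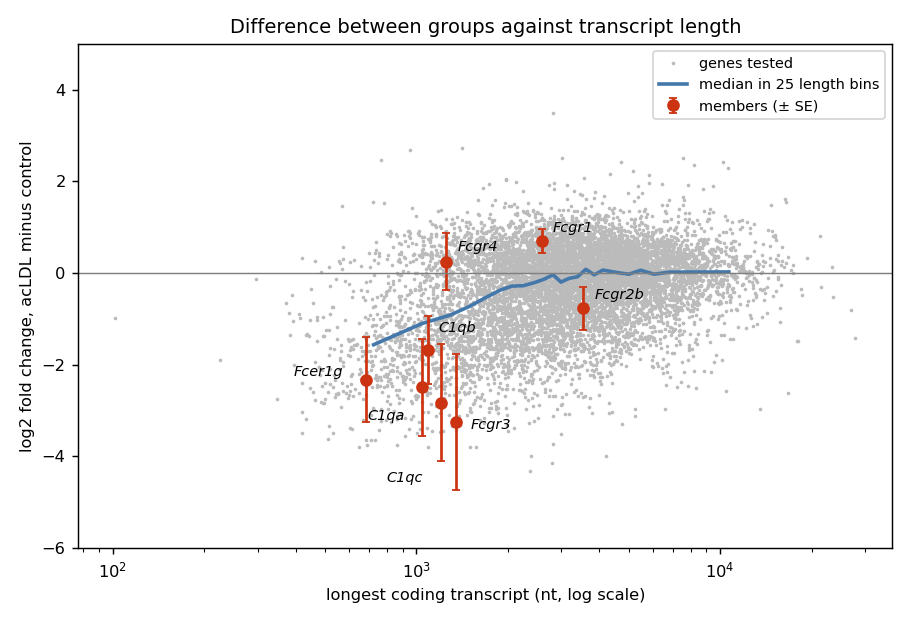
Log2 fold change, acLDL minus control (vertical axis), against the length of the longest coding transcript (horizontal axis, log scale) for the tested genes, with the median in bins of length and the 8 members with ± SE. Fcgr1, at 2589 nt, lay above 0, and Fcer1g, at 683 nt, and the C1q genes, at 1040 to 1203 nt, lay below the median of genes of their length.

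By length, Fcer1g is the shortest of the 8, with a longest coding transcript of 683 nt, followed by C1qa (1040 nt), C1qb (1088 nt), C1qc (1203 nt), Fcgr4 (1256 nt), Fcgr3 (1347 nt), Fcgr1 (2589 nt) and Fcgr2b (3544 nt). The median log2 fold change was -1.50 over the 489 tested genes under 1000 nt, the range of Fcer1g, and -0.90 over the 770 genes of 1000 to 1499 nt, the range of Fcgr3, Fcgr4 and the C1q genes. It was -0.06 over the 2654 genes of 2500 to 3999 nt, where Fcgr1 and Fcgr2b fall. Fcgr2b has shorter coding transcripts too, down to 1084 nt, and the table does not split a gene by transcript.

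In acLDL library 3 the log2 deviation from the control mean was -6.15 for C1qc, -6.02 for Fcgr3, -5.60 for C1qa, -4.86 for Fcer1g and -3.95 for C1qb. C1qa and C1qc are listed at 0 in that library, so their values there reflect the pseudocount of 5 and the level of their controls. Fcgr3, at 10.3 there and 7.96 in acLDL library 2, was close to the lowest value above 0, 5.0006. The median of genes of 1000 to 1499 nt in acLDL library 3 was -1.63. In acLDL library 2, Fcgr3 was at -6.25 and C1qc at -4.35, beside a median of -1.02, while C1qa at -1.95 and C1qb at -1.69 were closer to it. In acLDL library 4 the 5 genes ran from -2.88 for C1qa to -1.31 for C1qb, beside a median of -0.83 for genes of 1000 to 1499 nt. Fcer1g is shorter than these, and genes under 1000 nt had medians of -2.18, -3.09 and -1.08 in acLDL libraries 2, 3 and 4. Beside these, Fcer1g was at -2.99, -4.86 and -1.87.

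**Figure D4:**
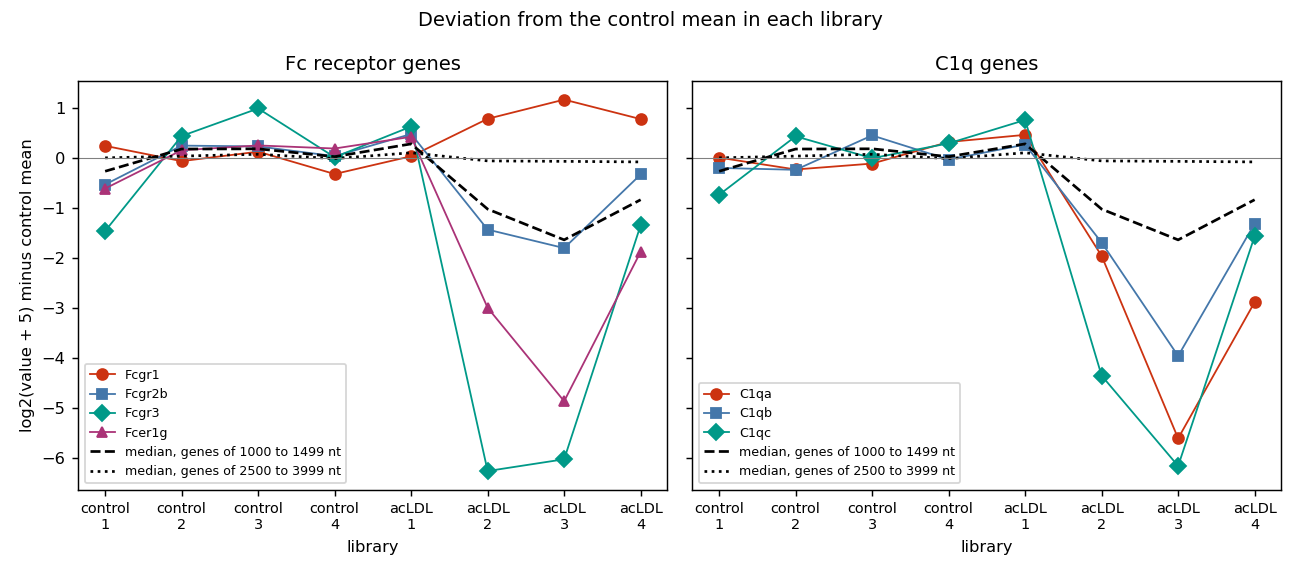
Log2(value + 5) minus the control mean (vertical axis) in each library (horizontal axis) for the Fc receptor genes with usable levels and the C1q genes, with the median of genes of 1000 to 1499 nt (dashed) and 2500 to 3999 nt (dotted). Fcgr1 lay above 0 in acLDL libraries 2, 3 and 4, at 1.17 in library 3, and the other genes lay below 0 there.

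Of the 8 genes, 7 tracked each other across libraries, and Fcgr4 did not. Over the 8 libraries Pearson's r ran from 0.78 to 0.99 among the 15 pairs of Fcgr2b, Fcgr3, Fcer1g, C1qa, C1qb and C1qc, and from -0.94 to -0.84 between Fcgr1 and each of those 6. For Fcgr4 with each of the other 7 it ran from -0.18 to 0.21. Over all genes tested, the first principal component, the pattern across libraries that holds most variance, held 62.6% of it. Scores on it were -66.6, 95.6, 128.6 and 32.2 in acLDL libraries 1 to 4 and 9.2, -75.3, -67.3 and -56.4 in control libraries 1 to 4. Over all genes tested, too, acLDL library 1 thus lay within the control range and acLDL libraries 2, 3 and 4 outside it. The share of other gene pairs with such r was not computed, so close tracking is not shown to be particular to these genes. Genes outside the set with the pattern most like the mean of the C1q genes, among 7239 genes above 0 in all libraries, were Arhgdib (r = 0.998), Lgals3bp (0.995), Rhog (0.995), Emp3 (0.994) and Cox8a (0.994). For the mean of the Fcgr genes they included Zhx1 (0.991), Mtln (0.990), Ccr1 (0.986) and Ugp2 (0.983).

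Other adaptors and signalling genes of the Fc receptor pathway showed several patterns. Tyrobp, an ITAM adaptor like Fcer1g, was at 3413, 256, 33.7 and 1217 in acLDL libraries 1 to 4 and from 2467 to 3719.9 in controls (log2 fold change -2.73, SE 1.17, adjusted p = 0.298 by limma). The receptor gene Clec4d, whose protein signals through the common gamma chain, was at 2622, 4607, 4323 and 3008 with acLDL and from 1539 to 2306 in controls. Its groups did not overlap, limma gave it a log2 fold change of 0.81 (SE 0.24, adjusted p = 0.298), and its longest coding transcript has 1323 nt, close to that of Fcgr3. Of 11 tested ITAM adaptors and partner receptors, 3 were higher and 8 lower, with a median of -0.22, and none passed the adjusted threshold.

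Of 18 tested genes of Fc receptor signalling, the mean was higher with acLDL for 8 and lower for 10, the median log2 fold change was -0.04, and none passed. Syk, the kinase that docks on phosphorylated ITAMs, was at 383, 616, 572 and 369 with acLDL and from 251 to 355 in controls, so that all acLDL libraries were above all controls (0.55 on the log2 scale, SE 0.24, adjusted p = 0.298 by limma). Lcp2, an adaptor downstream of Syk, was at 188, 490.3, 399 and 223 in acLDL libraries 1 to 4 against 144 to 194 in controls. Lyn, a Src-family kinase, ran from 923 to 1159 in acLDL libraries and from 894 to 1241 in controls.

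On the inhibitory side, 12 of 15 tested phosphatases, adaptors and receptors had lower means with acLDL and the other 3 higher means. The median was -0.39, and none passed the threshold. Inpp5d, the lipid phosphatase SHIP1 that Fcgr2b recruits, was at 193, 84.4, 39.2 and 49.9 in acLDL libraries 1 to 4 against 80.2 to 254 in controls. Ptpn6, the phosphatase SHP-1, was at 167, 33.7, 42.5 and 53.7, against 92.4 to 246 in controls. Lilrb4a, an inhibitory receptor with ITIMs, was at 650.2, 33.9, 89.9 and 36.2, against 222 to 2669 in controls (-3.11 on the log2 scale, SE 1.06, adjusted p = 0.298 by limma). In Inpp5d, Ptpn6 and Lilrb4a alike, acLDL library 1 lay within the control range.

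Of the other Fc receptors, 4 of 13 listed genes were in the table. Fcrls, an Fc receptor-like gene, was at 505, 1258, 1354 and 746 in acLDL libraries 1 to 4 against 456 to 769.9 in controls. Fcgrt, the neonatal Fc receptor that recycles IgG, ran from 26.0 to 98.1 in acLDL libraries and 31.2 to 121 in controls. The IgE receptor genes Fcer1a and Ms4a2 were not analysed here.

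Complement genes beyond C1q were few. Of 15 components listed, 5 were in the table, with 2 higher, 3 lower and none past the threshold (median -1.55). C1ra, a subunit of the protease that C1q activates, ran from 355 to 493 in acLDL libraries and 284 to 412 in controls. Cfb, the alternative pathway protease, was at 229.7, 27.1, 0 and 77.3 in acLDL libraries 1 to 4 against 149.6 to 386 in controls, and Cfp, properdin, was at 3046, 342, 108 and 699 against 715 to 2755. C3 was at or below 39.8 in every library.

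Among 12 tested complement receptors and C1q-binding proteins, means were higher with acLDL for 7 and lower for 5. The median log2 fold change was 0.02, and none passed. C3ar1, the C3a receptor gene, ran from 2307.5 to 4831 in acLDL libraries and 2791 to 3686 in controls. C5ar1, the C5a receptor gene, was at 500.1, 191, 184 and 372 in acLDL libraries 1 to 4 against 476 to 671 in controls (-0.91 on the log2 scale, SE 0.34, adjusted p = 0.298 by limma). The genes of the chains of complement receptor 3 did not pass either, with Itgam from 1742 to 2693 in acLDL libraries and from 1082 to 1918 in controls, and Itgb2 at 4328, 849, 394 and 1642 against 2233 to 4721. Calr and Lrp1, which bind C1q on phagocytes, had log2 fold changes of 0.25 and 0.03. Of the regulators, 3 of 9 listed could be tested, and none passed.

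**Figure D5:**
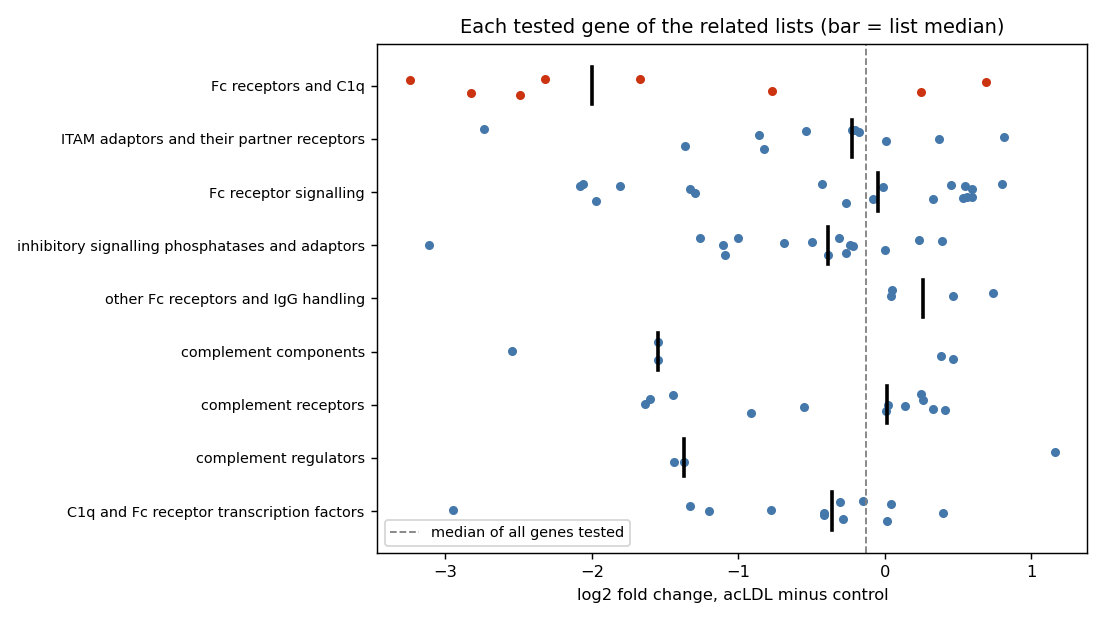
Log2 fold change, acLDL minus control (horizontal axis), of each tested gene in the Fc receptor and C1q set and 8 related lists (rows), with a bar at each list's median and a dashed line at the median of all genes tested, -0.13. The median was -1.995 for the Fc receptors and C1q, -0.04 for Fc receptor signalling and 0.02 for complement receptors.

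Among 12 tested transcription factors linked to these genes, means were higher with acLDL for 3 and lower for 9. The median was -0.36, and none passed. Spi1, which encodes PU.1, ran from 132 to 225 in acLDL libraries and 124 to 301 in controls, Irf8 from 254 to 338 and from 279.6 to 588, and Maf from 560.0 to 877 and from 676 to 927.

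Markers of other cell types moved in the same libraries. Granulocyte markers, 11 of 14 in the table, summed to 496 to 11396 in acLDL libraries and 5436 to 13277 in controls, and Ly6g, Elane and Ctsg were not analysed here. Of the 11, 1 was higher on average with acLDL and 10 lower, with a median log2 fold change of -1.66. Monocyte markers, 8 of 8, summed to 1071 to 2619 and 2467 to 3011, with 4 higher on average with acLDL and 4 lower. Their median was -0.34, beside -0.13 for all genes. By limma 3 of the 8 were lower at an unadjusted p under 0.05 and 0 higher, against 8.93% and 7.42% of all genes. Macrophage markers, 14 of 15, summed to 92277 to 141434 and 95108 to 106839, with 5 of the 13 tested higher on average and 8 lower. Gpnmb and Lyz2 made up most of that sum and lay on opposite sides of the controls in acLDL libraries 2, 3 and 4. Gpnmb was at 29876, 74794, 109921 and 86396 in acLDL libraries 1 to 4 against 35687 to 48201 in controls, and Lyz2 at 49987, 14388, 12898 and 19607 against 31512 to 57453. Adgre1 and Cd14 are listed at 0 in acLDL libraries 2 and 3. Apoe, a macrophage gene, ran from 4201 to 6120 in acLDL libraries and 4611 to 6233 in controls, and Mertk, a receptor for dying cells, from 655 to 1503 and from 529.9 to 1133. The part of these cells in the differences of Fc receptor and C1q genes was not tested.

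The starts of Fcgr1, Fcgr3 and C1qb are shown because Fcgr1 went the opposite way from the other pair in acLDL libraries 2, 3 and 4. Each is 250 bases before to 50 after the start in RefSeq (GRCm38.p6), 5′ to 3′ on the gene's own minus strand, at chr3:96293920-96294219, chr1:171059354-171059653 and chr4:136886151-136886450. Of the 8 genes, 7 matched this table, and C1qa was not among them. Capitals mark matches on either strand to GAGGAA (the core bound by PU.1), TGCTGA (a Maf half-site), TTCNNNGAA (the gamma-activated site) and an interferon-stimulated response element, and no marked matches overlap in these windows.
Fcgr1: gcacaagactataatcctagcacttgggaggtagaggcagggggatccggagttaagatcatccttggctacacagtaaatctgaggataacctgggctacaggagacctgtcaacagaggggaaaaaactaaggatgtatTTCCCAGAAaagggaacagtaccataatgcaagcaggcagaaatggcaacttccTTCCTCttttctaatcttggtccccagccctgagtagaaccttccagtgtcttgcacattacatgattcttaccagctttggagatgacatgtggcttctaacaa
Fcgr3: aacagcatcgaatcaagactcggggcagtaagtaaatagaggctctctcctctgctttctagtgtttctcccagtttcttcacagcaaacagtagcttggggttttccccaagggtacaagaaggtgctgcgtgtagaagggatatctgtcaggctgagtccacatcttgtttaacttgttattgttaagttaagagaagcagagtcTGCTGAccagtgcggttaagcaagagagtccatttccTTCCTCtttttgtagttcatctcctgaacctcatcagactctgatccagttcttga
C1qb: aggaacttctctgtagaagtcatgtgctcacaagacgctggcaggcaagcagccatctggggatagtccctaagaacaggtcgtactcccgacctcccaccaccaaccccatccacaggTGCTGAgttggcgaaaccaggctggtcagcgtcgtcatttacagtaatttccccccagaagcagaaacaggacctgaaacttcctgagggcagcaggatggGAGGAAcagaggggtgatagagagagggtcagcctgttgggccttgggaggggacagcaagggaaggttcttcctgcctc
GAGGAA was in Fcgr1, Fcgr3, Fcgr4, C1qb and C1qc, and in 28.3% of the 32851 promoter windows of this table. TGCTGA was in Fcgr3 and C1qb, and in 19.5% of windows. TTCNNNGAA was in Fcgr1 alone of the 7 genes and in 8.3% of windows, and the interferon-stimulated response element in Fcgr4 alone and in 3.44%. A match describes letters and not binding.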

How the data were processed

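Poly(A) RNA was sequenced in 8 libraries, made per the labels' protocols with RNeasy columns and the Lexogen QuantSeq V2 kit, which reads the 3′ end of messages, while the series' own design text speaks of 5′ quantification. The tools named, per the submitters' processing notes, are bcl2fastq 2.20 and kallisto, with mm10 as the build. No source used here states the annotation, filters or normalization. The deposited values are a normalized signal per gene: they are not whole, and the lowest value above 0 is 5.0006, so a value at 0 may stand for a low estimate. At most 13.6% of values below 60 in a library were whole multiples of 1 step (tolerance 0.01), so reads were not recovered. Sequencing depth per library therefore cannot be given from these values.

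Genes reaching 10 in 4 or more libraries were fitted with limma 3.58.1 (R 4.3.3) on log2(value + 5), with a variance trend, robust moderation and the group as the only term, and tested on simulated data. Members, lists and tests were chosen with earlier results of these data known. Named genes include the members, fixed pathway genes and the smallest p of several related lists. Some, such as C1ra, Gpnmb, Lyz2, Zbtb46 and Itgax, were named outside that rule. Alternatives covered pseudocount, filter, scaling, replicate block, array weights, moderation, the short-transcript covariate and left-out libraries. Transcripts came from GENCODE release 21 (86.2% of genes had a coding length). Sequences were handled in Python 3.11.15 with Biopython 1.88. Results on some genes are not reported here.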

Additional observations from a re-analysis of the deposited data

Results flagged for a closer look

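Control library 1 stood apart from the other controls for Fcer1g. Its value of 1329 lay below 2263, 2317 and 2418, and the gap to the nearest was 0.857 of the range of the controls, above the critical value of 0.829 for 4 samples. It was 1 of 16 groups of 4 examined over the 8 genes, and chance flags about 1 in 20. Without control library 1 the log2 fold change of Fcer1g was -2.52 (limma's adjusted p = 0.235).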

How the results depend on the processing

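Over 19 alternatives the log2 fold changes of the 8 genes gave 151 values, of which 136 kept their direction and stayed short of the threshold, 11 passed it and 4 changed sign. The sign changes were Fcgr2b at 0.24 with the short-transcript covariate and 0.078 without acLDL libraries 2 and 3, and Fcgr4 at -0.32 with array weights and from -0.30 (without control library 1) to 0.62 (without control library 3) with 1 library left out. Leaving out 1 library at a time gave 0 to 7 of the 8 genes past the threshold and 0 to 2190 genes of all, and only the fit without acLDL library 1 gave more than 0. Array weights gave 4 of the 8 genes and 1957 genes of all, quantile normalization 1 gene of all and moderation without a trend 3, and neither of these last brought a call among the 8. The cause was not tested. With the replicate block, 0 of the 8 genes and 0 of all passed. No source used here says whether equal numbers pair the libraries. The correlation of deviations from the group mean was -0.55, -0.21, -0.28 and 0.03 for numbers 1 to 4. With 4 libraries per group these values cannot decide whether libraries were paired. The mean filter of 50 left Fcgr4 out. Low values limit Fcgr4, and C1qa and C1qc in acLDL library 3, where a listed 0 gives no estimate. The size of the differences moved with the pseudocount. At pseudocounts of 1 and 20 the log2 fold change was -3.49 and -2.11 for C1qc, and -3.12 and -1.85 for C1qa. It was -3.48 and -2.73 for Fcgr3, 0.68 and 0.06 for Fcgr4, and 0.70 and 0.68 for Fcgr1.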
